A study of Mus musculus with 18 samples.

Results

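Tim-4low and Tim-4high macrophages from the peritoneal cavity of tumor-bearing mice given an antibody against Tim-4 were compared by bulk RNA sequencing. The 6 libraries were chosen by their labels, 3 Tim-4low and 3 Tim-4high, out of 18 libraries in all. Mice carried MC38-LG, a line derived from the MC38 mouse colon carcinoma, in the peritoneal cavity. They received anti-Tim-4 on day 7 after tumor challenge, and cells were collected on day 10. The same 2 populations were sequenced from mice with the tumor and an isotype control antibody (6 libraries) and from mice without a tumor, harvested on the same day (6 libraries). The titles of the libraries describe the Tim-4low gate as minus to low and the Tim-4high gate as plus to high. No strain, age, sex or genotype is given in the sources used here, nor how surface Tim-4 was stained in mice that had received an antibody to the same protein. The design text speaks of triplicates without naming the animals behind them, so the p-values below reflect how far these libraries varied, and that variation may be only technical.

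Tim-4, encoded by Timd4, is a receptor for phosphatidylserine, the lipid that dying cells expose, and marks long-lived resident macrophages of the peritoneal and pleural cavities. The large resident peritoneal macrophage depends on the transcription factor GATA6 and carries high F4/80 (Adgre1) and ICAM2. The small peritoneal macrophage derives from blood monocytes, and is known for CCR2, CD226, RELMalpha (Retnla) and MHC class II. A further program of resident tissue macrophages is marked by LYVE1, CD163, FOLR2 and, in many tissues, Tim-4.

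Libraries of the anti-Tim-4 groups held 26886131 to 34110364 estimated gene counts, and those of the whole series 24530042 to 34110364. Levels are in CPM, counts scaled by TMM library size. Fold changes are log2 values of Tim-4low over Tim-4high with the standard error, from edgeR's quasi-likelihood test on all 18 libraries with Benjamini-Hochberg adjustment over 16609 genes, and genes with an adjusted p under 0.05 are called changed. Libraries of the same number and condition deviated together, so values from a second fit with a term for each numbered pair are given where they change a call. Timd4, the gene of the sort, stood at 29.0, 23.1 and 11.9 CPM in Tim-4low libraries 1, 2 and 3 and at 219, 173 and 169 CPM in the Tim-4high libraries. The groups did not overlap, and the log2 fold change was -3.13 ± 0.85 (adjusted p = 0.0881, and 0.0117 in the paired fit). This follows the sort and is not a result. Csf1r, the receptor for the main macrophage growth factor, was at 1170 to 1540 CPM across the 6 libraries.

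After anti-Tim-4 fewer genes were called between the populations than in either other condition, with or without a term for the pairs. The main fit, which has no such term, called 231 genes (1.39% of those tested). Of these, 90 were higher and 141 lower in Tim-4low cells, and 57 and 39 of them by more than 2-fold. The Tim-4low and Tim-4high libraries did not overlap for 3655 genes (22%). In these bulk libraries, fewer cells of a type and less RNA per cell cannot be told apart. The paired fit called 1182 (7.12%), 522 higher (3.14%) and 660 lower (3.97%). With the isotype antibody, the main fit called 4011 genes (24.1%), and without a tumor it called 4086 (24.6%). The paired fit called 5658 (34.1%) and 5703 (34.3%) there. The median size of the log2 fold change over all genes was 0.15 with anti-Tim-4 and 0.25 in each of the other conditions. Of the 4011 isotype differences, 172 (4.29%) were called in the same direction with anti-Tim-4, 2908 had the same sign without a call, 930 had the other sign without a call, and 1 was called the other way. In the paired fit 719 of 5658 were called in the same direction (12.7%) and 71 the other way.

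The count rested on every library. It was 44, 25 and 96 without Tim-4high library 1, 2 or 3, and 139, 34 and 125 without Tim-4low library 1, 2 or 3, and 21 of the 231 genes were called in all 6 of these fits. Libraries numbered 3 stood apart for resident macrophage genes, and without both of them 10 genes were called. The number of isotype differences that remained was 37, 23, 83, 28 and 88 without Tim-4high libraries 1, 2 and 3 and Tim-4low libraries 2 and 3.

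Genes that separated the populations without a tumor gave a measure in libraries that enter neither tumor comparison. The 2118 genes higher in Tim-4low cells of tumor-free mice had a median log2 fold change of 0.57 there, 0.30 with isotype and 0.10 with anti-Tim-4. The 1968 genes lower in Tim-4low cells had medians of -0.74, -0.52 and -0.16. With anti-Tim-4 the sign was the same as without a tumor for 73.0% of the higher and 79.1% of the lower genes, against 86.8% and 90.7% with isotype. Pair by pair, on log2(CPM + 2), the medians were 0.03, 0.11 and 0.10 for the higher genes with anti-Tim-4 and 0.26, 0.26 and 0.18 with isotype, so all 3 anti-Tim-4 pairs lay below all 3 isotype pairs. For the lower genes they were -0.10, -0.17 and -0.13 against -0.38, -0.37 and -0.38. In a principal component analysis of the 18 libraries, the second component (19.6% of the variance) placed the isotype Tim-4high libraries at -31.54 to -23.43 and the Tim-4low ones at 13.27 to 25.31. The anti-Tim-4 Tim-4high libraries 1, 2 and 3 were at -10.72, -6.18 and 3.42, between these ranges, and the Tim-4low ones at -1.41, 9.35 and 21.86, of which library 3 lay inside the isotype Tim-4low range. The populations overlapped, and within each of the 3 numbered pairs the Tim-4low library was the higher.

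Whether the population difference differed between anti-Tim-4 and isotype mice was tested as the interaction of antibody and population over the 12 tumor libraries. The sort used the protein that the antibody binds. An effect of the antibody on the cells and one on the Tim-4 gate therefore cannot be told apart. The interaction called 487 genes (2.93%), 277 with a positive value (1.67%) and 210 with a negative one (1.26%). The paired fit called 2609 (8.40% positive, 7.31% negative). The value is the anti-Tim-4 log2 fold change minus the isotype one, so its sign does not give the size of the difference. Of the 4011 isotype differences, 463 had a called interaction, and in 462 its sign was opposite to the isotype difference, which was smaller or reversed with anti-Tim-4. Both calls use the same isotype libraries. The interaction count was 512, 3 and 1 without anti-Tim-4 Tim-4high library 1, 2 or 3, and 10, 111 and 1418 without anti-Tim-4 Tim-4low library 1, 2 or 3. It was 1, 494 and 39 without isotype Tim-4high library 1, 2 or 3, and 74, 1 and 735 without isotype Tim-4low library 1, 2 or 3, and 1 gene was called in all 12 fits.

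**Figure D1:**
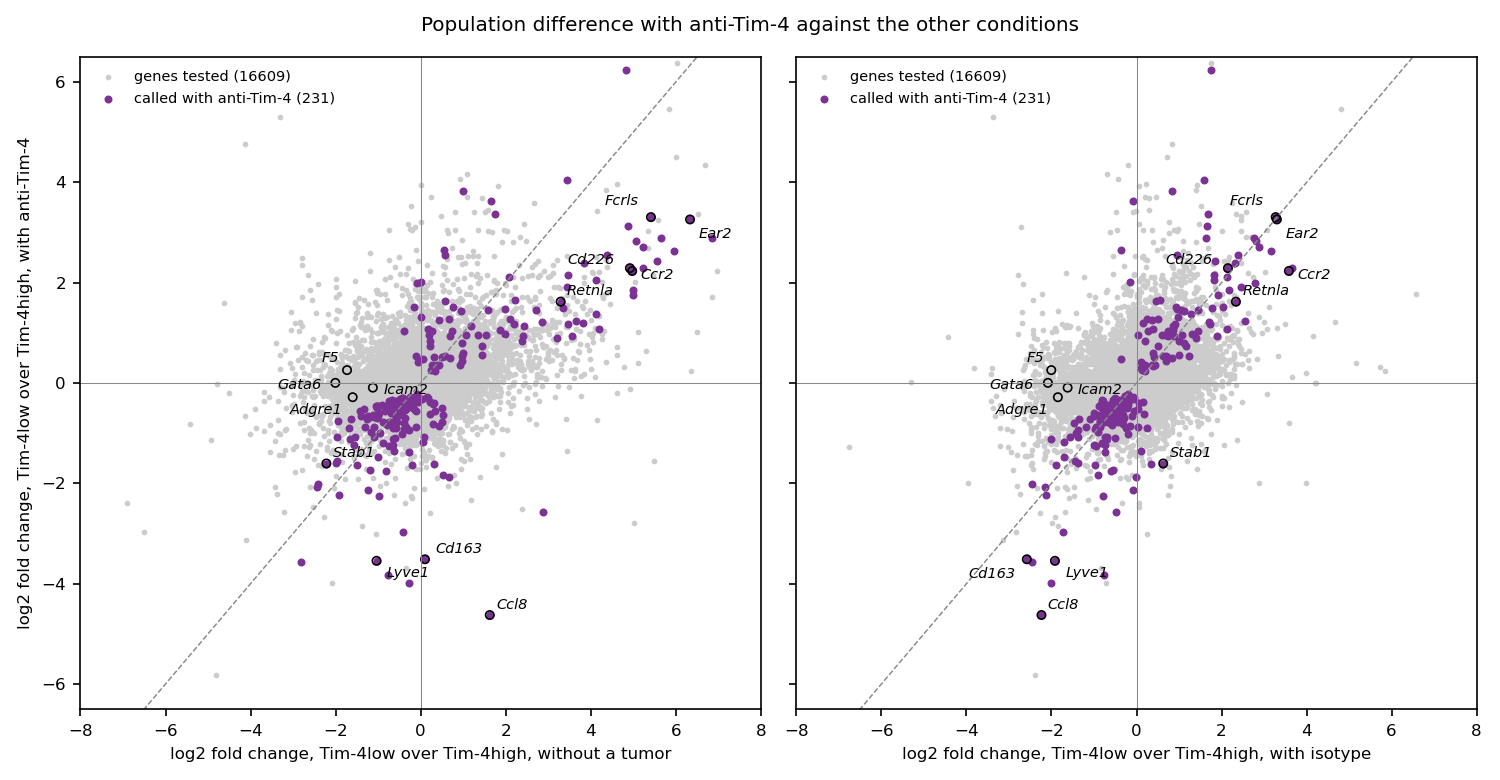
Each point is 1 of 16609 genes. The vertical axis is the log2 fold change of Tim-4low over Tim-4high with anti-Tim-4, and the horizontal axis the same without a tumor (left) or with isotype (right). Purple points are the 231 genes called with anti-Tim-4, the dashed line marks equal values, and 1 gene lies outside the axes. Gata6, Adgre1, Icam2 and F5 lie near 0 on the vertical axis and below -1 on both horizontal axes, while Lyve1, Cd163 and Ccl8 lie below -3 on the vertical axis.

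Part of the small macrophage program still marked Tim-4low cells. Of 20 tested genes known for small or recruited peritoneal macrophages, 6 were higher in Tim-4low cells and 0 lower (11 and 1 at an unadjusted p under 0.05, 7 and 1 with DESeq2), against 0.542% of all genes called higher. The paired fit called 12 higher and 1 lower, against 3.14% and 3.97% of all genes. The median log2 fold change of the list was 0.84, beside -0.004 over all genes, and it was 1.10 with isotype and 2.13 without a tumor. Ccr2 (chr9:124101950-124113557, plus strand, mm10), the receptor that brings monocytes out of the marrow, was at 560, 608 and 838 CPM in Tim-4low and 150, 117 and 159 CPM in Tim-4high libraries. All Tim-4low libraries lay above all Tim-4high ones, by a log2 fold change of 2.23 ± 0.36 (adjusted p = 0.0103). With isotype it was 3.58, and the interaction of -1.35 ± 0.49 did not pass (adjusted p = 0.136) but did in the paired fit (adjusted p = 0.0439). Tim-4high libraries held 45, 55.8 and 123 CPM of Ccr2 with isotype, so the Tim-4high values with anti-Tim-4 lay above 2 of those 3.

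Cd226, an adhesion receptor that marks small peritoneal macrophages, was at 21, 26.1 and 26.2 CPM in Tim-4low and 4.93, 4.50 and 5.52 CPM in Tim-4high libraries. The groups lay far apart and within each the libraries were close, with a log2 fold change of 2.29 ± 0.29 (adjusted p = 0.00269). Fcrls, an Fc receptor-like scavenger receptor, was at 22.7, 43.2 and 25.9 CPM against 3.38, 3.73 and 2.16 CPM, a log2 fold change of 3.31 ± 0.46 (adjusted p = 0.00348). Retnla, an alternative activation product, was at 132, 231 and 151 CPM against 64.0, 54.2 and 48.7 CPM, a log2 fold change of 1.62 ± 0.31 (adjusted p = 0.0183). For Cd226 and Fcrls the anti-Tim-4 and isotype differences were close, with interactions of 0.14 (95% interval -0.70 to 0.98) and 0.03 (-1.29 to 1.36). Tmem176a, a membrane protein of myeloid cells, was also higher (0.96 ± 0.16, adjusted p = 0.0103).

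Other genes of this program did not pass in the main fit. Mgl2, a lectin of alternatively activated cells, had a log2 fold change of 0.98 (95% interval -0.00 to 1.97, adjusted p = 0.376) where it was 4.25 without a tumor. A paired fit of the 6 anti-Tim-4 libraries alone called Mgl2 higher in Tim-4low cells (adjusted p = 3.53e-06). Itgax, encoding CD11c, had 1.79 (0.55 to 3.04, adjusted p = 0.167, and 0.0305 in the paired fit). Irf4, a transcription factor of monocyte-derived cells, had 0.74 (0.35 to 1.14, adjusted p = 0.0659, and 0.00299 in the paired fit). Mrc1, the mannose receptor, was at 301, 323 and 502 CPM in Tim-4low and 467, 547 and 608 CPM in Tim-4high libraries. These overlapped, and the log2 fold change of -0.53 had the opposite sign to that with isotype (1.37), with an interaction of -1.90 ± 0.60 (adjusted p = 0.0924, and 0.000699 in the paired fit). The paired fit of the 6 anti-Tim-4 libraries alone called Mrc1 lower in Tim-4low cells (adjusted p = 0.000919). MHC class II genes had no called member of 14 with edgeR (1 higher and 1 lower at an unadjusted p under 0.05, and the same counts with DESeq2 and in the paired fit), with a median of 0.12. The median was 0.25 with isotype, with 1 higher and 1 lower, against 11.3% and 12.9% of all genes. Without a tumor it was 1.93, with 10 higher, against 12.8% of all genes. With anti-Tim-4, 0.542% of all genes were called higher and 0.849% lower, and 3.14% and 3.97% in the paired fit.

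More genes were higher in Tim-4low cells after the antibody. Ear2, a ribonuclease of small macrophages and eosinophils, was at 38.5, 66.1 and 35.3 CPM against 5.40, 5.19 and 3.99 CPM, a log2 fold change of 3.26 ± 0.48 (adjusted p = 0.00492), and its reads may be shared with near-identical family members. Qpct, an enzyme that cyclizes N-terminal glutamine (2.12), Trerf1, a transcriptional regulator (1.86), the proteoglycan syndecan-1 gene Sdc1 (1.75), the lysozyme gene Lyz1 (1.46) and Batf3, a transcription factor of dendritic cells (1.24), were each called in all 3 conditions. Spon1, encoding the matrix protein spondin-1 (1.99), and the lipoprotein lipase gene Lpl (1.04) were called with anti-Tim-4 and isotype and not without a tumor. Aldh1a2, which makes retinoic acid, was at 53.5, 65.7 and 46.5 CPM in Tim-4low and 26.1, 23.3 and 19.4 CPM in Tim-4high libraries (1.27 ± 0.16, adjusted p = 0.00269). With isotype its groups stood at 55.9, 40.8 and 40.4 against 39.6, 37.6 and 38.0 CPM, a difference of 0.25, and the interaction was 1.02 ± 0.23 (adjusted p = 0.0347).

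Leaving out 1 anti-Tim-4 library kept the calls of Cd226, Fcrls, Ear2, Qpct and Aldh1a2. Ccr2 lost its call without Tim-4high library 2 (adjusted p = 0.0722). The calls of Spon1, Trerf1, Tmem176a and Lpl were lost without Tim-4high library 1 or 2 or Tim-4low library 2, and those of Retnla, Sdc1, Lyz1 and Batf3 without those and in some cases others, with adjusted p up to 0.139.

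The LYVE1 and CD163 program separated the populations in the other direction, with higher levels in Tim-4high cells. Timd4, the gene of the sort, is left out of this and every other list described here. Of 14 tested genes of the Lyve1 list, 5 were lower in Tim-4low cells and 0 higher (9 and 0 at an unadjusted p under 0.05, 8 and 0 with DESeq2), against 0.849% of all genes called lower. The paired fit called 9 lower, against 3.97% of all genes. The list's median log2 fold change was -1.62 with anti-Tim-4, -1.80 with isotype (1 higher, 6 lower) and 0.04 without a tumor (2 higher, 3 lower). Of all genes, 11.3% were called higher and 12.9% lower with isotype, and 12.8% and 11.8% without a tumor.

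Lyve1 (chr7:110850607-110863239, minus strand), a hyaluronan receptor, was at 10.9, 20.0 and 28.1 CPM in Tim-4low and 155, 276 and 258 CPM in Tim-4high libraries. The groups lay far apart, at a log2 fold change of -3.54 ± 0.57 (adjusted p = 0.0103), beside -1.92 with isotype and -1.04 without a tumor. Its interaction of -1.63 ± 0.74 was not called (adjusted p = 0.241) but was in the paired fit (adjusted p = 0.00444). Cd163 (chr6:124304656-124330527, plus strand), the scavenger receptor for hemoglobin, was at 14.2, 14.8 and 19.1 CPM against 132, 224 and 195 CPM, a log2 fold change of -3.51 ± 0.57 (adjusted p = 0.0103). With isotype its log2 fold change was -2.58, and the interaction of -0.93 was not called (adjusted p = 0.545). Without a tumor Cd163 did not separate the populations (0.10, adjusted p = 0.917).

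Ccl8 (chr11:82115185-82116799, plus strand), a monocyte-attracting chemokine, was at 2.08, 5.14 and 4.07 CPM in Tim-4low and 67.9, 123 and 87.2 CPM in Tim-4high libraries, a log2 fold change of -4.63 ± 0.47 (adjusted p = 0.000415). With isotype the libraries stood at 8.91, 10.5 and 6.62 against 33.0, 70.6 and 18.8 CPM, so the population difference was larger with anti-Tim-4. The interaction was -2.39 ± 0.60 (adjusted p = 0.0448). Gas6, a bridging ligand between phosphatidylserine and the TAM receptors, was at 1.93, 3.02 and 3.25 CPM against 19.6, 22.9 and 22.0 CPM, a log2 fold change of -2.97 ± 0.52 (adjusted p = 0.0123). Its interaction was -1.24 ± 0.71 (adjusted p = 0.365, and 0.0168 in the paired fit).

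The stretches before the annotated starts of Cd163 and Ccl8, lower in Tim-4low cells, and of Ear2, higher in them, are shown as the sequence next to 3 of the largest remaining differences. They are the 250 bases upstream of the RefSeq start on GRCm38.p6, plus strand, at chr6:124304401-124304650, chr11:82114935-82115184 and chr14:44102404-44102653. Capitals mark matches, on either strand, to GAGGAA (the core bound by the macrophage factor PU.1), TGCTGA (a MAF half-site) and TATAAA (the TATA box).
Cd163: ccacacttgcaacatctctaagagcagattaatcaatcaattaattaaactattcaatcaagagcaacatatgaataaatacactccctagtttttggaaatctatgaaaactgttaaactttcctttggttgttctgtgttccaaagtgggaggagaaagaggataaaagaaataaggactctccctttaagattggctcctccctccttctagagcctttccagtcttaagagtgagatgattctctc
Ccl8: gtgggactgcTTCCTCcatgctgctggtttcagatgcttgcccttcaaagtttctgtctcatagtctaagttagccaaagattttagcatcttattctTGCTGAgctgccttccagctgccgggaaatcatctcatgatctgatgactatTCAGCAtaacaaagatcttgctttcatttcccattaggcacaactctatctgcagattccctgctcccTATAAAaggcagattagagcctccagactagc
Ear2: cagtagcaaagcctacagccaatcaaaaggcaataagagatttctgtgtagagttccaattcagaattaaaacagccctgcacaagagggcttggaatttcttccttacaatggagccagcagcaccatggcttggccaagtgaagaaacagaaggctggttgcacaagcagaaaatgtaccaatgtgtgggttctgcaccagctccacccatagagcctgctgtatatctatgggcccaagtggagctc
Ccl8 held 1 match to GAGGAA, 2 to TGCTGA, which begin 152 and 100 bases before the start, and 1 to TATAAA, which begins 32 bases before it. Cd163 and Ear2 held no match to these letters in the window. Of 32851 windows of this length before RefSeq genes, 23.3% held GAGGAA, 16.1% TGCTGA and 12.4% TATAAA, and a match is a description of the letters only.

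Stab1, a scavenger receptor that also binds phosphatidylserine, was at 213, 302 and 376 CPM in Tim-4low and 671, 964 and 1080 CPM in Tim-4high libraries, a log2 fold change of -1.60 ± 0.37 (adjusted p = 0.0435). With isotype the order was the opposite without passing (0.63, adjusted p = 0.237), at 541, 574 and 383 against 244, 526 and 199 CPM, and the interaction was -2.23 ± 0.52 (adjusted p = 0.0373). Folr2, the folate receptor beta gene, was at 35.2, 60.2 and 78.7 CPM against 144, 194 and 203 CPM. Its groups did not overlap, and its log2 fold change of -1.64 ± 0.44 was called in the paired fit (adjusted p = 0.00313) and not otherwise (adjusted p = 0.0831). Cbr2, a carbonyl reductase, followed the same course (-1.71 ± 0.46, adjusted p = 0.0868, and 0.00402 in the paired fit).

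Other genes higher in Tim-4high cells after the antibody came with these. C6, a component of the complement membrane attack complex, was at 0.48, 0.54 and 0.23 CPM in Tim-4low and 5.67, 6.65 and 7.61 CPM in Tim-4high libraries (-3.99 ± 0.39, adjusted p = 0.000415). The cholesterol 25-hydroxylase gene Ch25h (-2.12), podoplanin gene Pdpn (-1.87) and Prune2 (-1.73) were called with anti-Tim-4 and in neither other condition. The interactions of C6, Ch25h, Pdpn and Prune2 were -1.97, -2.04, -1.86 and -1.18, not called (adjusted p 0.0548 to 0.212) but called in the paired fit (adjusted p 0.000217 to 0.00639). The calcium-binding protein gene Rcn3 (-1.61) was also called with anti-Tim-4 alone, and its interaction was called (-1.94 ± 0.49, adjusted p = 0.0458). Over all genes, 32 of the 231 were called with anti-Tim-4 alone, 11 higher and 21 lower, and 209 of 1182 in the paired fit; a call in 1 condition and not in others is no test of a difference between them.

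The calls of Ccl8 and C6 held without each anti-Tim-4 library in turn. Lyve1 lost its call without Tim-4low library 2 (adjusted p = 0.0546), Cd163 without Tim-4high library 2 or Tim-4low library 2 (adjusted p up to 0.0552), and Gas6 without those or Tim-4low library 1 (adjusted p up to 0.0689). Stab1, Ch25h, Pdpn and Prune2 lost theirs without any 1 of the 6 (adjusted p up to 0.17), and Rcn3 in 5 of 6 (adjusted p up to 0.157; the exception was without Tim-4low library 3), while log2 fold changes kept their sign.

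**Figure D2:**
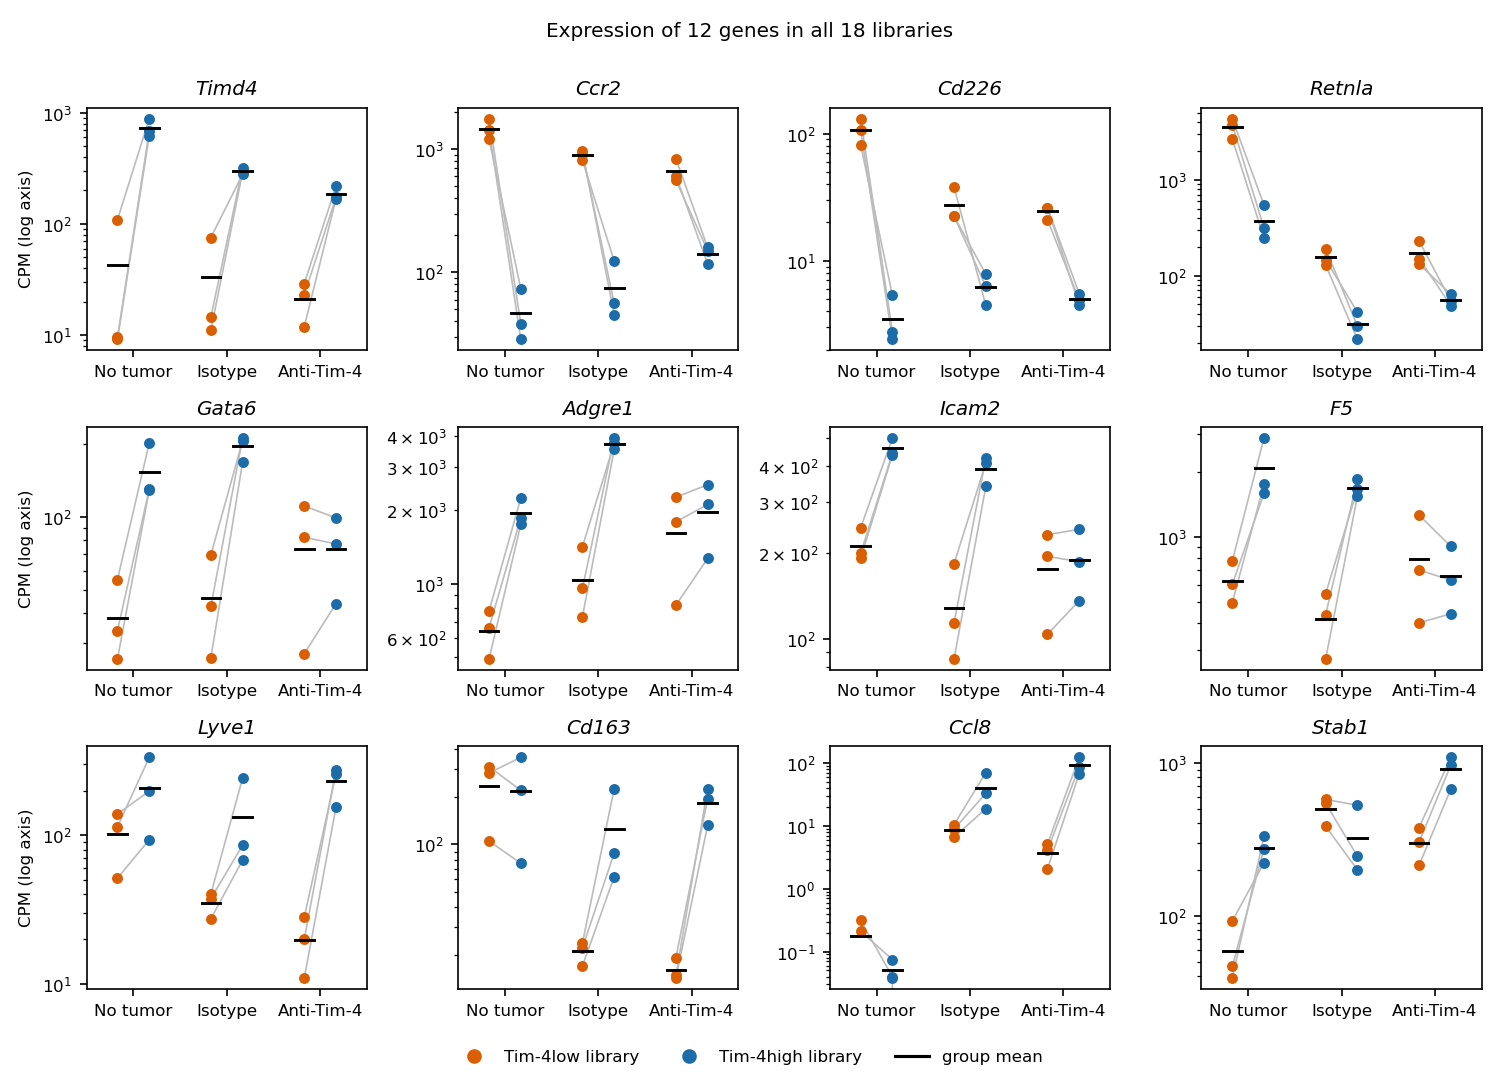
CPM of 12 genes on log axes in the 18 libraries, with points for single libraries, black bars for group means and grey lines joining libraries of the same number; a value of 0 is not drawn. Ccr2, Cd226 and Retnla are higher in all 3 Tim-4low libraries with anti-Tim-4, Lyve1, Cd163, Ccl8 and Stab1 are higher in all 3 Tim-4high libraries, and Gata6, Adgre1, Icam2 and F5 overlap.

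A set of genes was lower in Tim-4low cells under every condition. Cxcl13, a B cell chemokine made by resident cavity macrophages, was at 12.8, 13.5 and 5.19 CPM in Tim-4low and 51.1, 63.9 and 31.8 CPM in Tim-4high libraries (-2.22 ± 0.45, adjusted p = 0.026), beside -2.14 with isotype and -1.93 without a tumor. Its groups did not overlap, and its call was lost without any 1 library except Tim-4high library 3 (adjusted p up to 0.132). Cd63, a tetraspanin of late endosomes, was at 24.4, 28.5 and 17.6 CPM against 66.0, 85.3 and 61.2 CPM (-1.59 ± 0.28, adjusted p = 0.0132), and Dnm1, encoding the vesicle-scission protein dynamin-1, was lower by a log2 fold change of -1.63 ± 0.27 (adjusted p = 0.0103). Over all genes, 135 were called in the same direction in all 3 conditions, 56 higher and 79 lower, and 564 in the paired fit.

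Of 37 tested lysosome genes, 5 were lower and 0 higher (19 and 0 at an unadjusted p under 0.05, 9 and 0 with DESeq2), against 0.849% of all genes called lower. The paired fit called 17 lower, against 3.97%. The log2 fold changes ran from -1.59 (Cd63) to 0.12 with a median of -0.25, and 36 of the 37 were below 0. Ctsl, the protease cathepsin L, was at 549, 601 and 543 CPM in Tim-4low and 899, 1010 and 845 CPM in Tim-4high libraries (-0.70 ± 0.09, adjusted p = 0.00264). Ctsb, cathepsin B, was lower by -0.59 ± 0.10 (adjusted p = 0.0103) and the lysosomal membrane gene Lamp1 by -0.28 ± 0.06 (adjusted p = 0.0308). Grn, encoding progranulin, was lower by -0.35 ± 0.08 (adjusted p = 0.0434), less than the -0.81 with isotype, with an interaction of 0.47 ± 0.11 (adjusted p = 0.0409). With isotype 20 of the 37 were lower and 3 higher, against 12.9% and 11.3% of all genes. One of the 3, the dipeptidase gene Ctsc (1.00), was at 1830, 2200 and 2370 against 2140, 2210 and 2290 CPM with anti-Tim-4, with overlapping groups and an interaction of -1.05 ± 0.25 (adjusted p = 0.0378).

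Complement genes gave 5 lower and 0 higher of 20 (9 and 1 at an unadjusted p under 0.05, 6 and 0 with DESeq2; 9 lower and 1 higher in the paired fit), with a median of -0.31, against 0.849% of all genes called lower and 3.97% in the paired fit. C1qa, of the complement recognition protein C1q, was at 1750, 1830 and 1740 CPM in Tim-4low and 2630, 2520 and 2420 CPM in Tim-4high libraries (-0.51 ± 0.09, adjusted p = 0.0135), with no overlap. C1qc (-0.54, adjusted p = 0.013) was also lower. Among 9 Fc receptor genes, Fcgrt, which encodes the neonatal receptor that recycles IgG, was at 125, 134 and 165 against 253, 257 and 274 CPM (-0.89 ± 0.13, adjusted p = 0.00492). Fcgr2b, the inhibitory receptor for IgG, was at 590, 617 and 635 against 885, 970 and 986 CPM (-0.62 ± 0.14, adjusted p = 0.0357). With isotype Fcgr2b had a difference of 0.18, and the interaction of -0.81 ± 0.20 was called (adjusted p = 0.0411). The calls of Ctsl and Fcgrt held without each anti-Tim-4 library in turn, while those of Cd63, Dnm1, Ctsb, C1qa, C1qc and Lamp1 were lost without Tim-4high library 2 or Tim-4low library 2 and in some cases others (adjusted p up to 0.176), and those of Grn and Fcgr2b without any 1 (adjusted p up to 0.192).

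Most resident large peritoneal macrophage genes were not called between the sorted populations after the antibody. Of 25 tested, 23 were lower in Tim-4low cells with isotype, with a median log2 fold change of -1.94, and 23 without a tumor, with a median of -1.65, against 12.9% and 11.8% of all genes. With anti-Tim-4, 1 was lower (Cxcl13) and 0 higher (4 and 0 at an unadjusted p under 0.05, 1 and 0 with DESeq2), against 0.849% of all genes called lower, with a median of -0.10 and 17 of 25 below 0. The paired fit called 4 lower, against 3.97%. The interaction was positive in 23 of the 25, with a median of 1.54, and was called for 3, and for 21 in the paired fit, against 1.67% and 8.40% of all genes called in that direction.

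Gata6, the master regulator of the large peritoneal macrophage, was at 111, 82.4 and 27.2 CPM in Tim-4low and 99.0, 77.3 and 43.8 CPM in Tim-4high libraries. The groups overlapped throughout, library 3 was the lowest of both, and the log2 fold change was 0.00 (95% interval -0.95 to 0.95, adjusted p = 0.999). With isotype the libraries stood at 42.7, 26.1 and 69.7 against 212, 169 and 207 CPM (-2.08, adjusted p = 0.00434). The Tim-4high values with anti-Tim-4 thus lay below all 3 isotype Tim-4high values, and Tim-4low libraries 1 and 2 lay above all 3 isotype Tim-4low values. The interaction was 2.09 ± 0.64 (adjusted p = 0.0821, and 0.000546 in the paired fit).

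Adgre1, encoding F4/80, was at 2260, 1790 and 817 CPM in Tim-4low and 2540, 2110 and 1270 CPM in Tim-4high libraries. Each Tim-4low library lay below its partner (-0.28, 95% interval -0.97 to 0.41, adjusted p = 0.77). A paired fit of the 6 anti-Tim-4 libraries alone called Adgre1 lower in Tim-4low cells (adjusted p = 0.0248). With isotype the difference was -1.85, and the interaction was 1.57 ± 0.46 (adjusted p = 0.0723, and 0.000471 in the paired fit). Icam2, an adhesion molecule, was at 231, 194 and 104 against 241, 186 and 136 CPM (-0.09, adjusted p = 0.928), where it was -1.62 with isotype. Its interaction was 1.53 ± 0.40 (adjusted p = 0.0525, and 0.000348 in the paired fit). In all 3 genes library 3 of both populations was the lowest of its group.

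The 3 called interactions were F5, Laptm5 and Rarb. F5, coagulation factor V made by large peritoneal macrophages, was at 1260, 703 and 400 CPM in Tim-4low and 902, 629 and 441 CPM in Tim-4high libraries, against 437, 273 and 546 and 1840, 1540 and 1660 CPM with isotype (interaction 2.26 ± 0.52, adjusted p = 0.0373). Laptm5, a lysosomal protein of blood cells, was at 3070, 2860 and 2270 against 2900, 2480 and 2380 CPM (interaction 0.96 ± 0.19, adjusted p = 0.0263). Rarb, a retinoic acid receptor, was at 18.8, 15.9 and 11.8 against 18.8, 16 and 12 CPM, close within each pair (interaction 1.37 ± 0.34, adjusted p = 0.0444). In these genes too the isotype groups did not overlap and the anti-Tim-4 groups did.

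The paired fit called more resident genes. Vsig4, a complement receptor of resident macrophages, was at 73.0, 40.3 and 17.6 CPM in Tim-4low and 168, 133 and 72.6 CPM in Tim-4high libraries (-1.51 ± 0.48, adjusted p = 0.148, and 0.00621 in the paired fit), beside -2.18 with isotype. Bhlhe41, a transcription factor of resident macrophages, was at 6.23, 5.24 and 6.98 against 16.5, 16.2 and 19.1 CPM (-1.49 ± 0.53, adjusted p = 0.215, and 0.0299 in the paired fit). Itgam, encoding CD11b, had -0.30 ± 0.11 (adjusted p = 0.217, and 0.0156 in the paired fit).

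Genes that were higher in Tim-4low cells with isotype also lost their difference. S100a4, a calcium-binding protein of monocytes, was at 120, 185 and 190 CPM in Tim-4low and 131, 142 and 174 CPM in Tim-4high libraries with anti-Tim-4, and at 211, 236 and 230 against 53.8, 72.8 and 68.7 CPM with isotype. All 3 Tim-4high values with anti-Tim-4 lay above all 3 with isotype, and the interaction was -1.64 ± 0.25 (adjusted p = 0.0192). Mmp14, a membrane-bound matrix protease, was at 36.7, 70.4 and 58.5 against 40.9, 54.5 and 53.7 CPM, and at 71.4, 75.9 and 75.9 against 11.5, 18.6 and 15.7 CPM with isotype (interaction -2.13 ± 0.38, adjusted p = 0.0208). Ggta1, which adds the alpha-gal sugar (-2.08), and B3gnt7, another glycosyltransferase (-2.34), had like interactions, as did Ms4a4a, a tetraspan protein of macrophages (-1.97).

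The hypoxia regulator gene Hif1a was among them, at 324, 382 and 423 CPM in Tim-4low and 314, 343 and 349 CPM in Tim-4high libraries, against 533, 516 and 448 and 240, 271 and 257 CPM with isotype. Its interaction was -0.80 ± 0.15 (adjusted p = 0.0212). Those of Pfkfb4, a glycolysis regulator (-1.0, adjusted p = 0.0207), and of the mitophagy gene Bnip3 (-0.97, adjusted p = 0.0338) were also called. Of 28 glycolysis and hypoxia genes, none was called between the populations with anti-Tim-4 with edgeR (0 higher and 2 lower at an unadjusted p under 0.05, 0 and 1 with DESeq2), and the paired fit called 1 higher and 4 lower, against 3.14% and 3.97% of all genes. With isotype 10 were higher and 5 lower, against 11.3% and 12.9%. The medians were 0.01 and 0.15.

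Of 24 lipid efflux and storage genes, 3 had a called interaction, all negative, against 1.26% of all genes. These were Apoe, Trem2 and Pltp. Apoe, apolipoprotein E, was at 1060, 1520 and 2050 CPM in Tim-4low and 2270, 2700 and 2940 CPM in Tim-4high libraries with anti-Tim-4, and at 2290, 2170 and 2000 against 963, 1320 and 1010 CPM with isotype. The groups did not overlap in either condition and their order was opposite, with an interaction of -1.75 ± 0.40 (adjusted p = 0.0372). The anti-Tim-4 difference alone was -0.78 ± 0.28 (adjusted p = 0.234, and 0.00302 in the paired fit). Trem2, a lipid receptor of macrophages, was at 75.9, 102 and 133 against 127, 149 and 161 CPM. The groups overlapped, but each Tim-4low value lay below its partner, and the difference of -0.49 (adjusted p = 0.372) was called in the paired fit (adjusted p = 0.0296). Its interaction was -1.58 ± 0.33 (adjusted p = 0.0288). Pltp, the phospholipid transfer protein gene, had an interaction of -1.50 ± 0.35 (adjusted p = 0.0385). Of the 24 genes, 1 was higher (Lpl) and 1 lower (Ch25h) between the populations with anti-Tim-4, against 0.542% and 0.849% of all genes, and 1 and 8 in the paired fit, against 3.14% and 3.97%.

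**Figure D3:**
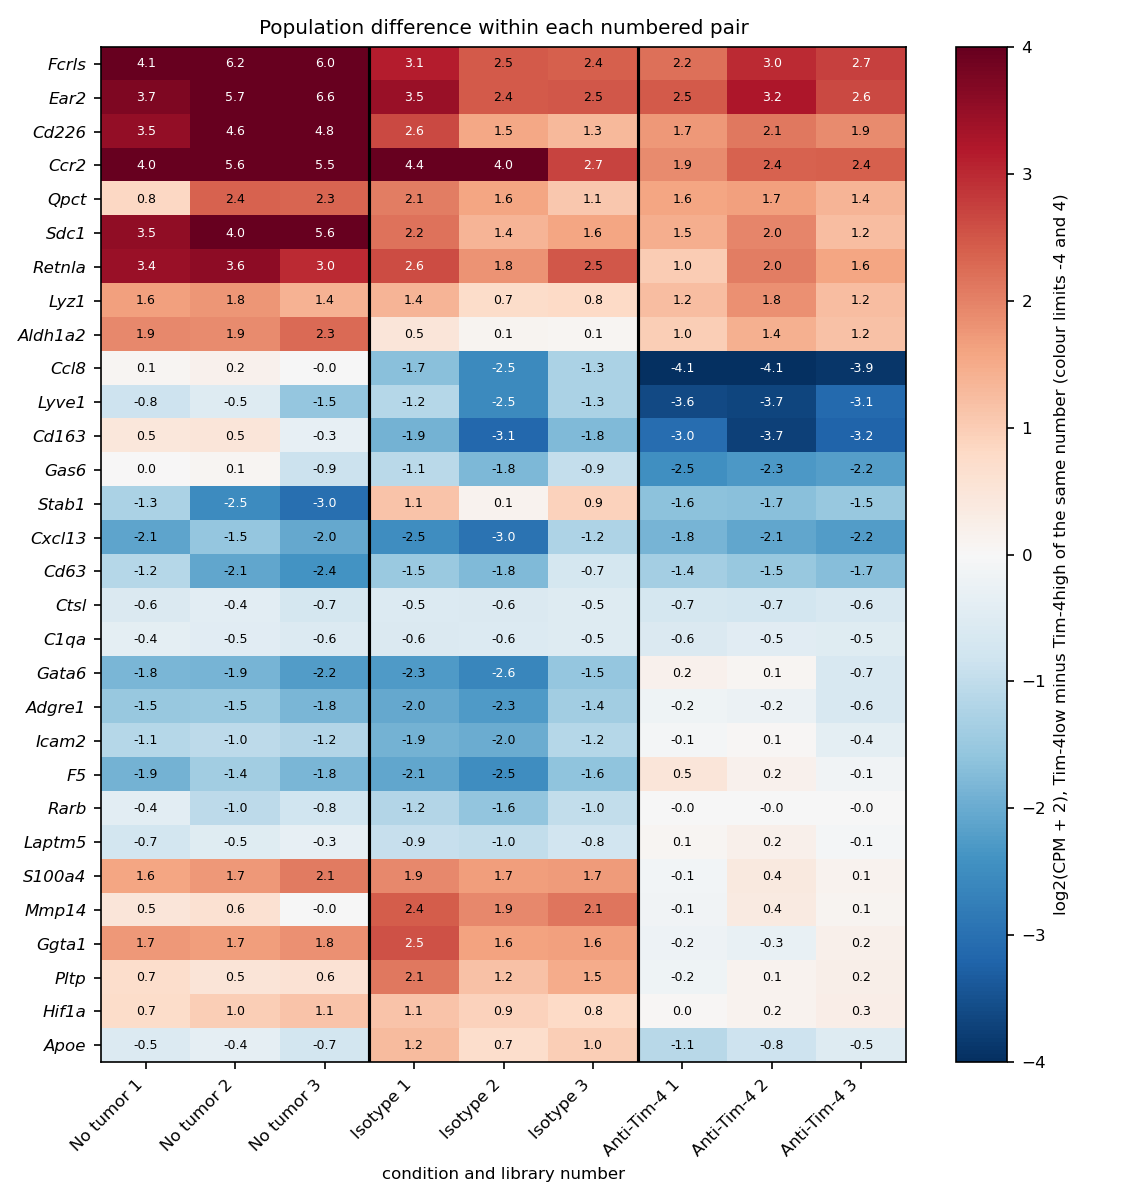
Rows are single genes and columns the 9 numbered pairs of libraries. Each cell gives log2(CPM + 2) of the Tim-4low library minus that of the Tim-4high library of the same number and condition (red higher, blue lower in Tim-4low). Fcrls to Lyz1 are red and Ctsl, C1qa, Cd63 and Cxcl13 blue in all 9 pairs, Ccl8, Lyve1 and Gas6 are bluest in the anti-Tim-4 columns, and Gata6 to Laptm5 turn pale in the anti-Tim-4 columns.

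Genes with the largest interactions were mostly of this pattern. Col18a1, encoding collagen XVIII, had one of 3.09 ± 0.78 (adjusted p = 0.0471), at 176, 99.4 and 21.3 CPM in Tim-4low and 113, 56.0 and 28.1 CPM in Tim-4high libraries, where library 3 was lowest in both populations, and at 16.2, 13.2 and 23.9 against 111, 102 and 88.3 CPM with isotype. Sorcs2, a sorting receptor, was at 32.7, 31.2 and 15.9 against 18.5, 16.8 and 10.7 CPM. Its Tim-4low value was the higher in all 3 pairs, with a difference of 0.79 ± 0.28 (adjusted p = 0.216, and 0.00133 in the paired fit), while it was -1.62 with isotype (interaction 2.42 ± 0.40, adjusted p = 0.0207).

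Every interaction named as called had its sign in each of the 12 fits that left out 1 library, but the calls did not hold in all of them. Pfkfb4 and S100a4 were called in 8 of 12, Sorcs2 in 7, Mmp14 in 6, Aldh1a2 and Hif1a in 5, Col18a1, Rarb and Rcn3 in 3, and the others named above in 4. Each of these calls was lost without anti-Tim-4 Tim-4high library 2 or 3, isotype Tim-4high library 1 or isotype Tim-4low library 2, with adjusted p up to 0.163 over the 12 fits.

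**Figure D4:**
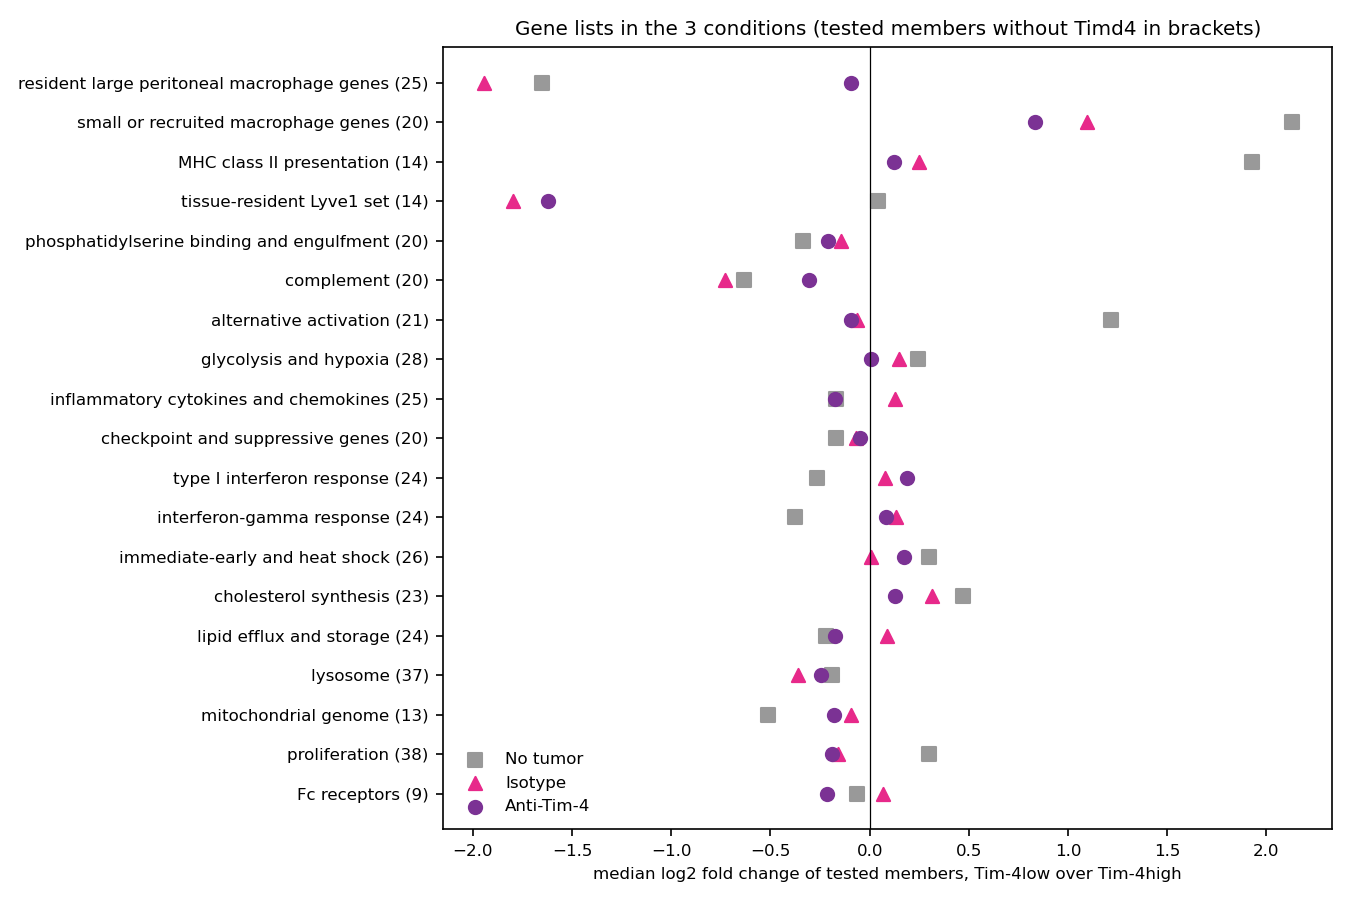
Median log2 fold change of Tim-4low over Tim-4high for each gene list without Timd4 (tested members in brackets), with squares for no tumor, triangles for isotype and circles for anti-Tim-4. The resident list moves from -1.94 with isotype to -0.10 with anti-Tim-4, the Lyve1 list is at -1.62 with anti-Tim-4, and most other lists are near 0 in that condition.

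Of 21 alternative activation genes, 1 was higher and 1 lower after the antibody with edgeR (5 and 2 at an unadjusted p under 0.05, 2 and 2 with DESeq2). The paired fit called 5 higher and 2 lower. The lists that follow gave 0 or 1 call with edgeR and more in the paired fit. Of all genes, edgeR called 0.542% higher and 0.849% lower, and the paired fit 3.14% and 3.97%. Cholesterol synthesis had 0 called of 23 with edgeR (2 higher at an unadjusted p under 0.05, 1 with DESeq2, 1 in the paired fit), beside 9 higher with isotype (11.3% of all genes) and 17 without a tumor (12.8%). Immediate-early and heat shock genes had 0 of 26 (0 at an unadjusted p under 0.05, 0 with DESeq2), and 9 higher in the paired fit. The 24 type I interferon and 24 interferon-gamma response genes had 0 called in either direction (1 and 0 at an unadjusted p under 0.05, 0 with DESeq2), with 3 type I genes higher and 1 gene of each list lower in the paired fit, and 25 inflammatory cytokine and chemokine genes had 0 (2 higher and 3 lower at an unadjusted p under 0.05, 0 with DESeq2; 2 higher and 7 lower in the paired fit). Of 38 proliferation genes 1 was lower, the replicative helicase gene Mcm6 (-0.55 ± 0.12, adjusted p = 0.0296, lost without any 1 library with adjusted p up to 0.15), and 9 were lower in the paired fit. Its log2 fold change was -0.05 with isotype and 0.34 without a tumor.

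Of single genes of immune regulation, Arg1, Cd274, Havcr2, Axl and Mertk were not called with edgeR, and Axl and Mertk were in the paired fit. Arg1, the arginine-degrading arginase, was at 7270, 7410 and 6960 CPM in Tim-4low and 9370, 9390 and 8520 CPM in Tim-4high libraries, with no overlap but a log2 fold change of -0.33 (95% interval -1.07 to 0.40, adjusted p = 0.745). A paired fit of the 6 anti-Tim-4 libraries alone called Arg1 lower in Tim-4low cells (adjusted p = 0.0126). Cd274, encoding PD-L1, had -0.15 (-1.44 to 1.14, adjusted p = 0.945), and Havcr2, encoding Tim-3, had 0.18 (-0.50 to 0.85, adjusted p = 0.867). Of the TAM receptors, which take up apoptotic cells through Gas6 and protein S, Axl was at 301, 290 and 324 against 233, 186 and 216 CPM (0.53 ± 0.14, adjusted p = 0.082, and 0.0181 in the paired fit). Mertk was at 175, 150 and 184 against 202, 204 and 214 CPM (-0.29 ± 0.15, adjusted p = 0.431, and 0.0238 in the paired fit). Of 20 other tested genes for phosphatidylserine binding and engulfment, without Timd4, 4 were lower and 0 higher (7 and 1 at an unadjusted p under 0.05, 5 and 1 with DESeq2), namely Gas6, Stab1, C1qa and C1qc, against 0.849% of all genes called lower. The paired fit called 8 lower and 2 higher, against 3.97% and 3.14%.

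Summed levels of markers of other cells differed between the populations in both directions. In Tim-4high libraries the 13 mesothelial and fibroblast markers in the file summed to 5.46 to 8.51 CPM, and in Tim-4low libraries to 19.3 to 33.1 CPM. The 20 T and NK cell markers summed to 33.4 to 48.5 against 18 to 25.7 CPM, and the 13 neutrophil markers to 94.5 to 142 against 59.2 to 73.3 CPM. All 12 tested mesothelial and fibroblast, 20 T and NK cell and 11 neutrophil markers had log2 fold changes above 0. None was called with edgeR (7, 0 and 1 at an unadjusted p under 0.05, 5, 0 and 0 with DESeq2), against 0.542% of all genes called higher. The paired fit called 7, 6 and 6 of them higher, against 3.14% of all genes. The 7 plasma cell markers summed to 263 to 278 against 213 to 241 CPM. These sums were mostly Xbp1, whose groups overlapped (245, 215 and 229 against 224, 204 and 195 CPM), and they include Sdc1, named above. The 15 B cell markers summed to 21.1 to 30.4 against 18.9 to 23.4 CPM. The 14 dendritic cell markers summed to 268 to 485 against 256 to 367 CPM, mostly Cd24a. The 10 mast cell markers summed to 32 to 91.9 against 34.3 to 67.3 CPM, mostly Hdc. These 3 sums overlapped. Log2 fold changes were below 0 in 2 of 14 tested B cell, 1 of 14 dendritic cell and 0 of 7 mast cell markers. Their medians were 0.58, 0.94 and 0.87. The 7 eosinophil markers summed to 39.2 to 74.8 against 6.11 to 8.70 CPM, mostly Ear2, and the granule gene Prg2 was at 0.20 CPM or less in all 6 libraries. The 15 monocyte markers summed to 27000 to 35800 against 31900 to 38600 CPM, mostly Fn1, which resident macrophages also express. Of these 15, 4 had log2 fold changes below 0, and their median was 0.59. Ly6c2, of classical monocytes, was at 62.0, 68.4 and 108 CPM in Tim-4low and 37.6, 31.5 and 45.9 CPM in Tim-4high libraries (1.05, adjusted p = 0.526, and 0.0236 in the paired fit). F13a1 went the other way, at 88.2, 176 and 160 against 182, 365 and 249 CPM (-0.91, adjusted p = 0.366), and was called lower in the paired fit. The 8 epithelial and carcinoma markers in the file summed to 12.7 to 13.8 against 18.5 to 20.4 CPM. This lower sum in Tim-4low libraries was mostly Cdh1. Of the 5 tested, 1 had a log2 fold change below 0, and their median was 1.39. Epcam was at 0.13 CPM or less in all 6 libraries. The 9 red cell and platelet markers summed to 29.2 to 63.7 against 59.7 to 107 CPM, lower in Tim-4low in each pair and mostly Pf4. Of the 7 tested, 2 had log2 fold changes below 0, and their median was 0.59. The reference groups held outlying libraries for such markers. In isotype Tim-4high and Tim-4low libraries 3, T and NK cell markers summed to 238 and 252 CPM. Neutrophil markers summed there to 423 and 426 CPM. In the other isotype libraries these sums were 29.8 to 55.6 and 97 to 127 CPM. B cell markers summed to 1920 CPM in no-tumor Tim-4low library 1, against 197 to 627 CPM in the others without a tumor. What part these other cells have in the differences above was not tested.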

How the data were processed

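The authors deposited estimated counts per gene, not normalized. Per the submitters' processing notes, STAR, DESeq2 and the mouse build mm10 were used; for the quantifier, the annotation release and strand handling, the sources used here give nothing. Symbols of the 23511 genes matched GENCODE M21, which gave coordinates on mm10. Near-identical copies (Ear2, Fc receptors, Ms4a4a) share reads, and antisense partners cannot be told apart.

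Estimated counts were rounded. Of the genes, 16609 passed filterByExpr, and the 6902 others held up to 0.0878% of the counts of any library. All 18 libraries, in 6 groups, entered 1 quasi-likelihood model of edgeR 4.0.16 (R 4.3.3) scaled by TMM, so all groups share 1 estimate of the spread (12 residual degrees of freedom, common dispersion 0.0323). The 95% intervals use the quasi-likelihood standard error. No contrast of one condition shares libraries with that of another. Replicates differed beyond counting noise (chi-square per degree of freedom 9.663 to 75.22).

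Library numbers come from the titles, which do not say that a number is 1 mouse. On deviations from group means of log2(CPM + 2), both populations of 1 number and condition correlated at 0.345 to 0.658 in 9 pairs, and those of other numbers at -0.577 to 0.292. Every pair was over 0.1, so the numbers were taken to pair the libraries, and the paired fit has a term for each pair (6 residual degrees of freedom).

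The members and the 31 gene lists, written from general knowledge, were chosen with earlier results of these data known. The rule for naming genes took Timd4, the 12 largest called changes each way (10 CPM or more in 1 group, libraries not overlapping, predicted models left out), the 6 largest interactions each way, up to 4 members of each list with a call, and key genes. It took 124 genes, and not all are named; some results are not reported here. Individual marker genes of other cells (Ly6c2, F13a1, Fn1, Prg2, Epcam, Cdh1, Cd24a, Hdc, Xbp1, Pf4) were chosen after their values were seen. Lists are described by counts and medians and were not tested as sets.

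Alternatives were RLE factors, no filter, robust estimation, DESeq2 1.42.0, the compared libraries alone, the paired fits and leaving out each library; leaving out both libraries of a number was added after seeing the data. On simulated data for 16325 genes, the test recovered 75% of genes changed 2-fold and 93% of those changed 4-fold between the anti-Tim-4 populations, and 61% and 88% for the interaction. The simulated counts had no effect shared by a numbered pair, and the genes with the lowest levels were not among those changed. The real libraries deviated in pairs, so these shares may not hold for them.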

Additional observations from a re-analysis of the deposited data

Results flagged for a closer look

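The difference between Tim-4low and Tim-4high cells differed between anti-Tim-4 and isotype in 487 genes by edgeR's quasi-likelihood test of the interaction with Benjamini-Hochberg adjustment. Values are the log2 fold change of Tim-4low over Tim-4high with anti-Tim-4 minus that with isotype, and each gene was taken for its own interaction test. Positive ones, where Tim-4low cells gained relative to Tim-4high cells, were 3.09 for Col18a1, 2.96 for the hedgehog-interacting protein relative Hhipl1, 2.64 for the netrin receptor gene Unc5b, 2.59 for Strip2, 2.44 for Gfod1 and 2.42 for Sorcs2. Unc5b, Strip2 and Col18a1 were called in 3 of the 12 fits that left out 1 library. In these 6 genes the isotype difference was called lower in Tim-4low cells and the anti-Tim-4 difference was not called. A paired fit of the anti-Tim-4 libraries alone did call the anti-Tim-4 difference of Gfod1, Sorcs2, B3gnt7, Apoe and Trem2. Negative ones were -2.34 for B3gnt7, -2.13 for Mmp14, -2.08 for Ggta1, -1.75 for Apoe and -1.58 for Trem2, each called higher in Tim-4low cells with isotype and not called with anti-Tim-4. For Ccl8 the value was -2.39, with the same direction in both conditions, and for Stab1 it was -2.23, with opposite signs of which the anti-Tim-4 one was called.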

How the results depend on the processing

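The counts of calls with anti-Tim-4, of interactions and of isotype differences that remained changed with most settings, in the order given here. DESeq2 gave 529, 1297 and 349. The fit of the compared libraries alone gave 445 and 976, and 2472 for no tumor. The replicate block gave 1182, 2609 and 719, and with the compared libraries alone 1909, 3233 and 1129; the numbers pair the libraries. Beside the changed calls given with each gene, it called the difference of Bnip3 and the interactions of Batf3, Cbr2, Fcgrt, Folr2, Havcr2, Irf4, Itgam, Ly6c2 and Mcm6. Leaving out 1 library gave 25 to 139, 1 to 1418 and 23 to 173, and for isotype 2625 (without Tim-4low library 2) to 3485. Leaving out both anti-Tim-4 libraries numbered 3 gave 10 and 7 for the calls and those that remained, and both isotype libraries numbered 3 gave 9 interactions. RLE factors, no filter and robust estimation kept these counts within 1.5 times, but some named genes lost their calls. Robust estimation lost the difference of Stab1 and the interactions of Ccl8, Rcn3, Col18a1, Unc5b and Strip2, among others. No filter lost the differences of Lamp1 and Grn and the interaction of Rcn3, and RLE factors that of the Grn difference. The compared libraries alone lost the differences of Lamp1 and Grn and the interactions of Col18a1 and Unc5b. The cause of these changes was not tested. No named gene changed sign with a call under these settings. With 3 libraries a group, part of the 2-fold differences would be missed.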
